A study of Rattus norvegicus with 6 samples.

Results

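T cells and cytotoxic lymphocytes were followed in regenerated rat sciatic nerve through 10 genes chosen by symbol, of which 9 were measured among 23091 genes in the table. The 9 are Cd3e, Cd3d, Cd3g, Cd247, Cd2, Lck, Cd8a, Nkg7 and Prf1. Gzmb was not analysed here. All 6 libraries came from wild-type male Sprague-Dawley (SD) rats with a sciatic nerve defect. In the NC group (3 libraries) the wound was closed directly with no treatment. In the GDNF-Gel/HA-Mg group (3 libraries, called conduit 1 to conduit 3 here) a nerve conduit of that name was implanted, and the comparison asks what it changes in gene expression of the regenerating nerve. Ages, the time after surgery and whether each library came from a separate animal are not given in the labels, so the p-values here reflect library-to-library spread alone, which may be technical.

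T cells recognise antigen through a receptor whose signal passes into the cell along the CD3 chains, encoded by Cd3e, Cd3d, Cd3g and Cd247. The kinase Lck phosphorylates these chains, and CD8, whose alpha chain Cd8a encodes, brings Lck to the receptor. Cytotoxic T cells and natural killer (NK) cells kill targets with granules that carry perforin (Prf1) and granzymes, and Nkg7 encodes a granule membrane protein of both. After nerve injury, lymphocytes enter the nerve in smaller numbers than macrophages. In whole tissue, fewer cells of a type and less RNA per cell cannot be told apart.

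Total counts ran from 15897850 to 18491379 per library. Haemoglobin genes took 1.02% to 25.2% of them, lowest in NC 2 and highest in NC 3. The sum of 9 Schwann cell genes spanned 19.5-fold, from 1827 CPM in conduit 2 to 35582 CPM in NC 2 (CPM, counts scaled to library size by TMM). The Schwann cell markers Sox10, S100b and Ngfr were detected in every library. T cell markers beyond the members, Cd5 and Cd6, and the NK cell markers Ncr1, Klrb1a, Klrk1 and Klrd1 were also detected in every library, at 2 counts or more.

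The lymphocyte genes were expressed at a low level and varied more between libraries of a group than between the groups. Summed, the 9 genes came to 33.3 CPM (NC 1), 18.4 (NC 2) and 51.3 (NC 3). The same sum was 43.8 CPM (conduit 1), 72.5 (conduit 2) and 29.1 (conduit 3). The highest library was 3.94 times the lowest, while the mean was 34.3 ± 16.5 CPM (SD, n = 3) in NC and 48.5 ± 22.1 CPM (n = 3) with the conduit, a ratio of 1.41. Conduit 2 was the highest library and NC 2 the lowest, and the groups overlapped. The same libraries were the extremes of the Schwann cell sum in the opposite order, and the part of this in the lymphocyte result was not tested.

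**Figure D1:**
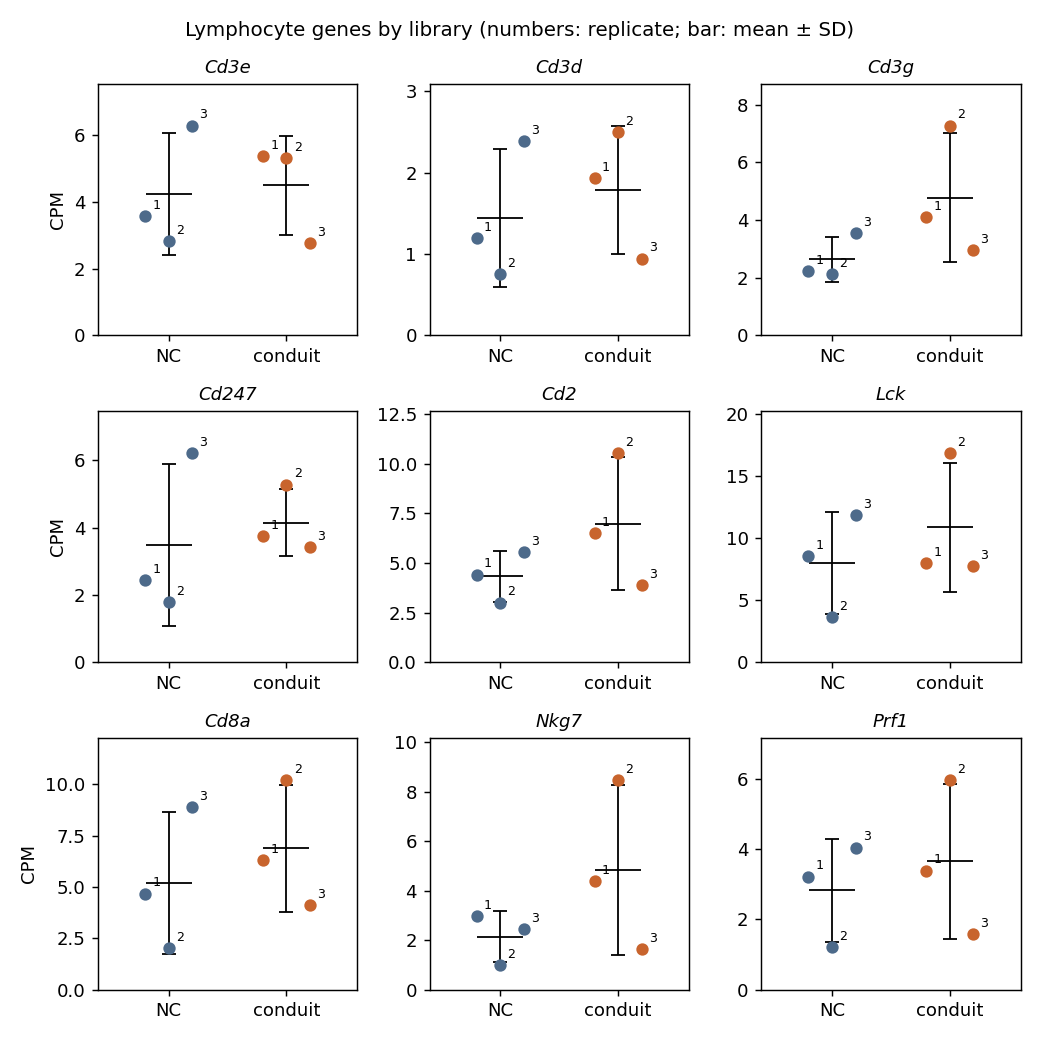
Level of each of the 9 genes (CPM, y axis from 0) in the 3 NC and 3 conduit libraries; points are libraries numbered by replicate, and the bar is the mean with its SD. In each panel the groups overlap, and conduit 2 is the highest library in 7 of the 9 genes.

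Cd3e, the CD3 epsilon chain (ENSRNOG00000016069), had 69, 49 and 87 counts in NC 1 to NC 3 and 92, 98 and 47 in conduit 1 to conduit 3. These were 3.58, 2.83 and 6.29 CPM across NC 1 to NC 3 against 5.39, 5.33 and 2.77 CPM across conduit 1 to conduit 3. The highest library was NC 3 and the lowest conduit 3, so both extremes lay against the direction of the group means. Cd3g, the CD3 gamma chain (ENSRNOG00000015945), stood at 2.23, 2.14 and 3.54 CPM across NC 1 to NC 3 against 4.10, 7.28 and 2.95 CPM across conduit 1 to conduit 3. Only conduit 3 among the conduit libraries fell within the NC range. Cd3d, the CD3 delta chain (ENSRNOG00000015994), was the least counted of the 9 genes, with 23, 13 and 33 counts across the NC libraries and 33, 46 and 16 across the conduit libraries. Its levels were 1.19, 0.75 and 2.39 CPM across NC 1 to NC 3 against 1.93, 2.50 and 0.94 CPM across conduit 1 to conduit 3. Conduit 2 and NC 3 were close at the top, and NC 2 and conduit 3 at the bottom. Cd247, the zeta chain that carries most of the signalling motifs of the receptor (ENSRNOG00000003298), stood at 2.44, 1.79 and 6.22 CPM across NC 1 to NC 3 against 3.75, 5.27 and 3.42 CPM across conduit 1 to conduit 3. Here NC 3 was the highest library, and the other two of NC lay below all 3 conduit libraries.

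Lck (ENSRNOG00000009705) had the most counts of the 9 genes, 165, 63 and 164 across the NC libraries and 137, 311 and 132 across the conduit libraries. In CPM it stood at 8.57, 3.64 and 11.9 across NC 1 to NC 3 against 8.02, 16.9 and 7.78 across conduit 1 to conduit 3. NC 1, conduit 1 and conduit 3 were nearly level, with NC 2 lowest and conduit 2 highest. Cd2, an adhesion and costimulatory receptor of T and NK cells (ENSRNOG00000015821), stood at 4.41, 3.01 and 5.57 CPM across NC 1 to NC 3 against 6.50, 10.5 and 3.89 CPM across conduit 1 to conduit 3. Conduit 3 lay below NC 1 and NC 3. Cd8a (ENSRNOG00000007178), which rat NK cells also express, stood at 4.67, 2.02 and 8.89 CPM across NC 1 to NC 3 against 6.32, 10.2 and 4.13 CPM across conduit 1 to conduit 3. NC 3 came next to conduit 2, and conduit 3 lay below NC 1.

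Of the cytotoxic granule genes, Nkg7 had the widest span of all 9 genes. Nkg7 (ENSRNOG00000017749) was counted 57, 17 and 34 times across the NC libraries and 75, 156 and 28 times across the conduit libraries. These were 2.96, 0.98 and 2.46 CPM across NC 1 to NC 3 against 4.39, 8.48 and 1.65 CPM across conduit 1 to conduit 3, a span of 8.63-fold over the libraries. Conduit 1 and conduit 2 exceeded every NC library, and conduit 3 lay below NC 1 and NC 3. Prf1 (ENSRNOG00000000562), the pore-forming protein of the granule, stood at 3.22, 1.21 and 4.05 CPM across NC 1 to NC 3 against 3.40, 5.98 and 1.59 CPM across conduit 1 to conduit 3. Its span was 4.92-fold, close to that of Cd8a (5.05-fold), and that of Cd3e was 2.27-fold, the narrowest of the 9 genes. The granzyme B-like gene Gzmbl2 (ENSRNOG00000049976), looked at after its values were seen, stood at 2.08, 0.64 and 0.87 CPM across NC 1 to NC 3 against 0.59, 2.12 and 0.88 CPM across conduit 1 to conduit 3. Its near-identical relatives can share reads, so these values are uncertain.

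No member passed edgeR's quasi-likelihood test over all 13999 genes tested, in which 0% of genes were called (0 genes), at an adjusted p of 1.0 for each member. By DESeq2, which called 0.0786% of the genes, the adjusted p of each member was also 1.0, and limma-voom called 0 genes. At an unadjusted p under 0.05 edgeR placed 1.03% of genes on the higher and 0.693% on the lower side in the conduit group, and 0 of the 9 members. All 9 members passed the filter on low counts and the log2 fold change was above 0 in each (median 0.41). Over all genes tested 47% were positive, with a median of -0.01. The members varied together across libraries, so these signs are not separate observations. The largest log2 fold change was that of Nkg7, 1.18 ± 0.69 (SE; 95% interval -0.49 to 2.85). Cd3g followed at 0.86 ± 0.42 (-0.18 to 1.89) and Cd2 at 0.69 ± 0.43 (-0.36 to 1.74). Lck stood at 0.45 ± 0.51, Cd8a at 0.41 ± 0.59, Prf1 at 0.37 ± 0.63, Cd3d at 0.32 ± 0.58, Cd247 at 0.26 ± 0.51 and Cd3e at 0.09 ± 0.42. The interval of Cd3e ran from -0.93 to 1.11.

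The size of the difference rested on NC 2 and conduit 2. NC 2 was the lowest library for 8 of the 9 genes and conduit 2 the highest for 7. Leaving them out therefore had to lower the difference, and the direction of that change is no finding. The median of the 9 log2 fold changes was 0.03 without NC 2 and 0.01 without conduit 2. Without both, a setting chosen after the data were seen, 3 of the 9 genes were positive and 6 negative, with a median of -0.28. In that setting Cd3g stood at 0.29, Nkg7 at 0.15 and Cd2 at 0.05, while Prf1 stood at -0.55, Cd8a at -0.38 and Lck at -0.37. Without NC 3, the library with the most haemoglobin, the median was 0.90 and all 9 genes were positive. Without conduit 3 the median was 0.67 and all 9 genes were positive as well. Conduit 3 was the lowest conduit library for each of the 9 genes, and NC 3 the highest NC library for most. Leaving out either therefore had to raise the median, and that rise is no finding either. All 9 genes were already positive with every library in. With the haemoglobin level as a covariate 5 were positive and the median was 0.08. None of these settings called a member. The members are transcripts that circulating lymphocytes also carry, and the part of blood in the result was not tested.

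**Figure D2:**
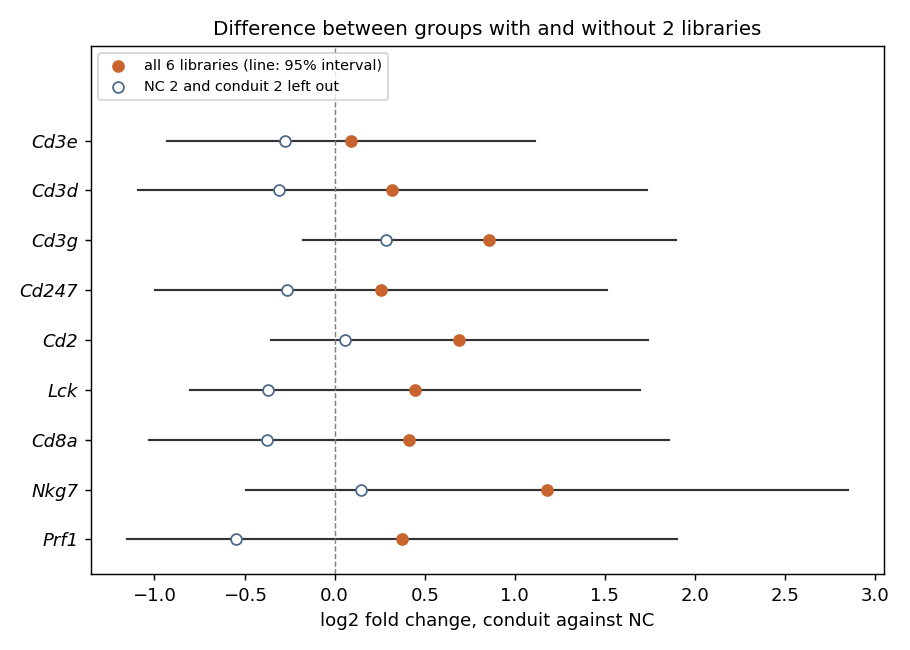
Log2 fold change of each gene, conduit against NC (x axis), in all 6 libraries (filled points, with 95% intervals) and with NC 2 and conduit 2 left out (open points). Every interval includes 0, and 6 of the 9 open points lie below 0. NC 2 was the lowest and conduit 2 the highest library of most genes, so leaving them out had to lower the difference.

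The members kept a similar order over the libraries. NC 2 was the lowest library for 8 of the 9 genes, where 21.8% of all tested genes had their lowest value there, and conduit 2 the highest for 7, against 15.1% of all genes. Cd3e and Cd247, both highest in NC 3, were the exceptions at the top, and Cd3e, lowest in conduit 3, at the bottom. Over the 6 libraries, the log2 CPM of each gene followed the mean of the other members with a Pearson r between 0.84 (Cd247) and 0.97 (Cd8a). Among the 36 pairs of members r ranged from 0.62 to 0.97, with a median of 0.86. These are descriptions over libraries of one tissue that differ in their Schwann cell and haemoglobin levels. Of the genes that are no members, Adgrg3, Wdr46, Rgs19, Skap2 and Irak4 followed the mean of the members most closely, each with an r of 0.99 over the 6 libraries. These 5 were the top of a search through the genes with an established symbol among the 13999 tested. Picked in this way over 6 libraries, their high r is no test of likeness. Adgrg3 was the only one of the 5 with a wide span (0.64 to 8.10 CPM). The others spanned 1.43-fold to 1.79-fold. Their own log2 fold changes were 0.86 ± 0.92, 0.13 ± 0.17, 0.19 ± 0.25, 0.13 ± 0.17 and 0.22 ± 0.19.

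Relative to each other the members were steadier than their levels. Per count of the CD3 genes (Cd3e, Cd3d, Cd3g and Cd247 summed), Cd8a stood at 0.49, 0.27 and 0.48 across NC 1 to NC 3 against 0.42, 0.50 and 0.41 across conduit 1 to conduit 3. Outside NC 2, the 5 libraries thus lay between 0.41 and 0.50. Cd2 per count of the CD3 genes ran from 0.30 in NC 3 to 0.52 in conduit 2, and Lck from 0.48 in NC 2 to 0.91 in NC 1. Nkg7 varied most on this scale, at 0.31, 0.13 and 0.13 across NC 1 to NC 3 against 0.29, 0.42 and 0.16 across conduit 1 to conduit 3, a span of 3.18-fold. Prf1 ran from 0.16 in conduit 3 to 0.34 in NC 1. In all 5 ratios the groups overlapped. Set against all leukocytes, the order of the libraries was similar. Per count of Ptprc, which encodes the pan-leukocyte protein CD45, the 9 genes stood at 0.44, 0.24 and 0.52 across NC 1 to NC 3 against 0.43, 0.63 and 0.28 across conduit 1 to conduit 3, with NC 2 again lowest and conduit 2 highest. Ptprc itself stood at 76.5, 78.1 and 99.0 CPM across NC 1 to NC 3 against 102, 115 and 104 CPM across conduit 1 to conduit 3, with no overlap, and did not pass the test (log2 fold change 0.34 ± 0.14, edgeR adjusted p 1.0).

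**Figure D3:**
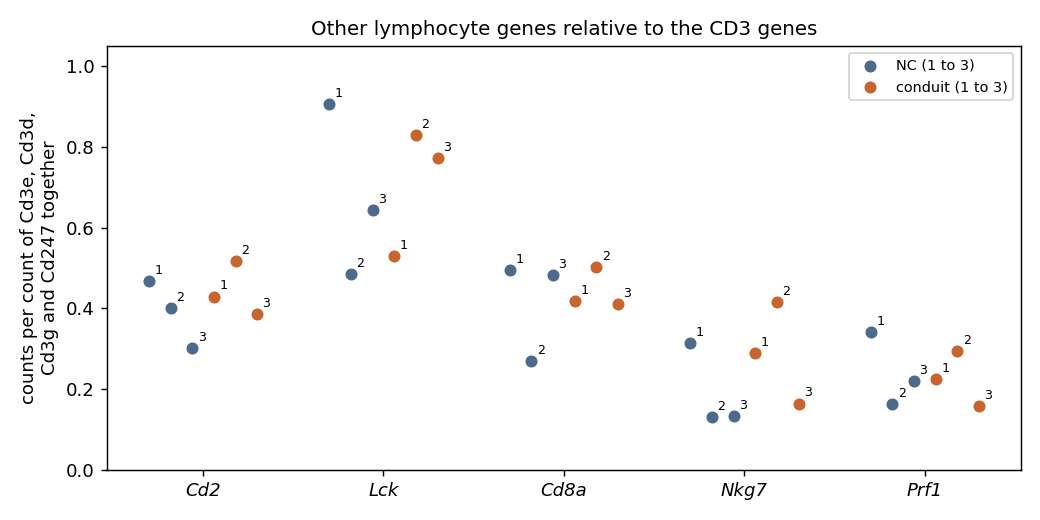
Counts of 5 genes per count of the CD3 genes (y axis) in each library; points are libraries numbered by replicate and coloured by group. NC and conduit points overlap for each gene, and Nkg7 has the widest relative span, 0.13 to 0.42.

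The promoters of the members are shown as a description, and their part in the shared variation of the members was not tested. The ETS and RUNX families of transcription factors include factors that act in the lymphoid lineages, though neither family is confined to them. ETS factors bind sites with a GGAA core. In the RefSeq windows of 300 bases around each gene start (build GRCr8), the ETS-type letters CAGGAAGT, searched on both strands and chosen after the sequences were seen, occurred in 3.05% of 33469 windows. Among the members they occurred in Cd3e, Cd247, Lck and Prf1, 4 of 9 genes and 5 of 10 windows, as Lck has a pair of listed starts. Because the letters were chosen with these sequences in view, the comparison with all windows is no test. In the lines that follow, capitals mark this motif, read as ACTTCCTG where it lies on the other strand.
Cd3e (chr8:54211721-54212020, minus strand): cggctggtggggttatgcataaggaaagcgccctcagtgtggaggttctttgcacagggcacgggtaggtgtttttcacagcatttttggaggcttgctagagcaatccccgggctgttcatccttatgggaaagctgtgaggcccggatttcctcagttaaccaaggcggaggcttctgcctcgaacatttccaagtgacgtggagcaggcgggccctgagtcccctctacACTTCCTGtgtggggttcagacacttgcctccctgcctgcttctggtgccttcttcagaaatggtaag
Cd247 (chr13:80576019-80576318, plus strand): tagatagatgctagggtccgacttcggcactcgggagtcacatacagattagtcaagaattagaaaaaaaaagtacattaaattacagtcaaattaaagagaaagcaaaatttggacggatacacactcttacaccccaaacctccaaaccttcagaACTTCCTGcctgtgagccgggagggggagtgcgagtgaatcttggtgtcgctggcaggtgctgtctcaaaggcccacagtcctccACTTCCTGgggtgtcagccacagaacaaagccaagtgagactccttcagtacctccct
Lck, upstream start (chr5:147201218-147201517, minus strand): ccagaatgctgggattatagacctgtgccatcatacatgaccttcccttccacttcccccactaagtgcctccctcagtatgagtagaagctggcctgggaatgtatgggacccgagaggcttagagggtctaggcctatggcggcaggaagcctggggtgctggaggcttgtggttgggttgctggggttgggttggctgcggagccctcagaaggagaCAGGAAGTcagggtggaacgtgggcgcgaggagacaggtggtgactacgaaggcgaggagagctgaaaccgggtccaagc
Lck, downstream start (chr5:147183601-147183900, minus strand): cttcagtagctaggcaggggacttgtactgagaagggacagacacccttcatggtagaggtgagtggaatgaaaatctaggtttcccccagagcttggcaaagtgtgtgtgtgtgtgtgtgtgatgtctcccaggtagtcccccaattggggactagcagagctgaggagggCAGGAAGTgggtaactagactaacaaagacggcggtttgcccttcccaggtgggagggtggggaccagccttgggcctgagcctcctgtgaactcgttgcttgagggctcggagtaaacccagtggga
Prf1 (chr20:29788790-29789089, plus strand): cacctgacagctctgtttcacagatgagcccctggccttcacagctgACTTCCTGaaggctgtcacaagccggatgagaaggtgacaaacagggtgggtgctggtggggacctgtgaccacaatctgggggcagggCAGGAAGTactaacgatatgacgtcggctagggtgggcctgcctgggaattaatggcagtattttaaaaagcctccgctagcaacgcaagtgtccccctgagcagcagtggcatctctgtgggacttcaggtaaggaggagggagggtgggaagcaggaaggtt
In Cd3e the motif begins 18 bases before the start, and in Cd247 93 and 8 bases before it. In Lck it begins 30 bases before the upstream start and 78 before the downstream start, and in Prf1 203 and 114 bases before it. The RUNX-type letters TGTGGT, on either strand, occurred in Cd2, Lck (upstream start only), Nkg7 and Prf1. These were 4 of 10 windows, against 17.3% of all windows, and this comparison is no test either. TATAAA occurred in none of the 10 windows, against 14.2% of all, and 10 windows are too few to set apart from that share. These matches are letters in a window and not measured sites. Cd3d and Cd3g, which held neither the ETS-type nor the RUNX-type letters, start 1601 bases apart on opposite strands, the closest pair among the members.

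Other genes of T cells, NK cells and their signals were read from 6 lists. They hold 135 symbols, of which 127 were in the table and 103 were tested. The lists are not specific to lymphocytes: Tyrobp is also in the macrophage list. Fyn (141 CPM) and Prkcq (64.7 CPM) were highest in NC 2, the lowest library of most members. Of the 103 genes, 87 had a positive and 16 a negative log2 fold change (median 0.37), and edgeR called 0. Over all genes tested 47% were positive. In 14 of the 103 all conduit libraries lay above all NC libraries, where 2.81% of all genes tested did. In 0 of them all lay below, where 2.88% of all genes did. By edgeR the unadjusted p was under 0.05 for 7 of the 103, each higher with the conduit. Among them were Trat1, Cd6, Lag3, Faslg, Cst7 and Gzmk. Over all genes tested 1.03% were on the higher and 0.693% on the lower side at that p. Among the 14 genes without overlap, Trat1, Lag3, Faslg and Ncr1 passed the filter on low counts only through the conduit libraries, where they were high. Their lack of overlap is no support. The 103 genes include the members and were read in the same 6 libraries, so they are not separate observations.

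In the list of the T cell receptor complex and its early signalling proteins, 22 of 24 tested genes were positive and 0 were called. In 4 the groups did not overlap, where 2.81% of all genes tested lay above and 2.88% below. The median log2 fold change was 0.35. Like that of the members, this median rested on few libraries: it was 0.19 without NC 2, 0.11 without conduit 2, 0.72 without NC 3 and -0.062 without both NC 2 and conduit 2. Trat1, an adaptor that stabilises the receptor complex, stood at 0.47, 0.23 and 1.08 CPM across NC 1 to NC 3 against 1.52, 3.15 and 1.71 CPM across conduit 1 to conduit 3. All 3 conduit libraries were above NC, on 4 to 15 counts in NC and 26 to 58 with the conduit. The NC counts of Trat1 alone would not have passed the filter on low counts, so its lack of overlap is no support. Its log2 fold change was 1.85 ± 0.65 (edgeR adjusted p 1.0). Cd6, an adhesion receptor of T cells, stood at 3.43, 2.25 and 3.54 CPM across NC 1 to NC 3 against 5.50, 4.67 and 4.60 CPM across conduit 1 to conduit 3. Its log2 fold change was 0.68 ± 0.27, and it was highest in conduit 1, where 7 of the 9 members were highest in conduit 2.

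Among coreceptors, subset and lineage factors, 14 of 18 tested genes were positive (median 0.37), 0 were called and 1 did not overlap. Of all genes tested 2.81% lay above and 2.88% below without overlap, so 1 of 18 is near the share over all genes. Cd8b, the CD8 beta chain found mainly on T cells, stood at 1.04, 1.10 and 2.60 CPM across NC 1 to NC 3 against 2.40, 3.10 and 2.42 CPM across conduit 1 to conduit 3. NC 3 lay within the conduit range, and the log2 fold change was 0.75 ± 0.45. Counts of Cd8a per count of Cd8b ran from 1.71 in conduit 3 to 4.50 in NC 1. Gata3, a factor of helper T cells and other lymphocytes, was the gene of this list without overlap, at 0.78, 0.81 and 0.80 CPM across NC 1 to NC 3 against 0.94, 2.06 and 1.18 CPM across conduit 1 to conduit 3 (0.81 ± 0.43). Satb1, a chromatin organiser of T cells, was on the lower side at -0.31 ± 0.20. Foxp3, the factor of regulatory T cells, had 8 to 12 counts in each library and was too low to be tested.

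Among costimulatory and inhibitory receptors, 8 of 13 tested genes were positive (median 0.16) and 0 were called. In 2 the groups did not overlap, where 2.81% of all genes tested lay above and 2.88% below. Lag3, an inhibitory receptor of activated T and NK cells, stood at 0.52, 0.64 and 0.58 CPM across NC 1 to NC 3 against 1.52, 1.3 and 1.00 CPM across conduit 1 to conduit 3. All conduit libraries lay above all NC libraries, on 8 to 11 counts in NC and 17 to 26 with the conduit (1.13 ± 0.38, edgeR adjusted p 1.0). The NC counts of Lag3 alone would not have passed the filter on low counts, so its lack of overlap is no support. Cd244, a receptor of NK cells whose symbol has a pair of entries in the table that may share reads, stood at 0.62 ± 0.36 on the log2 scale. Slamf6 stood at 1.25 ± 0.93, from 1.63 CPM in conduit 2 to 16.2 CPM in conduit 3. Conduit 2, the top library of most members, was its lowest. Ctla4 and Tigit had at most 3 counts in any library.

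Among genes of the cytotoxic granule and of killing, 14 of 15 tested genes were positive (median 0.37) and 0 were called. In 3 the groups did not overlap, where 2.81% of all genes tested lay above and 2.88% below. Faslg, the ligand that triggers death through Fas, was counted 10, 7 and 5 times across the NC libraries and 27, 43 and 15 times across the conduit libraries. In CPM these were 0.52, 0.40 and 0.36 across NC 1 to NC 3 against 1.58, 2.34 and 0.88 across conduit 1 to conduit 3, with no overlap (1.88 ± 0.50, edgeR unadjusted p 0.00892, adjusted p 1.0). Faslg passed the filter on low counts only through the conduit libraries, so its lack of overlap is no support. Cst7, an inhibitor of the proteases that activate granzymes and also a gene of macrophages, stood at 6.80, 7.40 and 8.53 CPM across NC 1 to NC 3 against 12.6, 10.2 and 12.9 CPM across conduit 1 to conduit 3 (0.65 ± 0.18, edgeR unadjusted p 0.0106, adjusted p 1.0). Gzmk, a granzyme of T cells, stood at 2.54, 0.64 and 1.37 CPM across NC 1 to NC 3 against 4.16, 6.63 and 2.30 CPM across conduit 1 to conduit 3 (1.51 ± 0.62). Conduit 3 lay below NC 1. With NC 2 and conduit 2 left out, Faslg stood at 1.45, Lag3 at 1.19, Trat1 at 1.07, Cst7 at 0.73, Gzmk at 0.70 and Cd6 at 0.53 on the log2 scale. Their adjusted p ran from 0.458 to 0.764 in that setting, so none was called. For the 5 of them whose groups do not overlap, leaving out libraries could not turn the direction, so their signs there are no sign of stability.

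**Figure D4:**
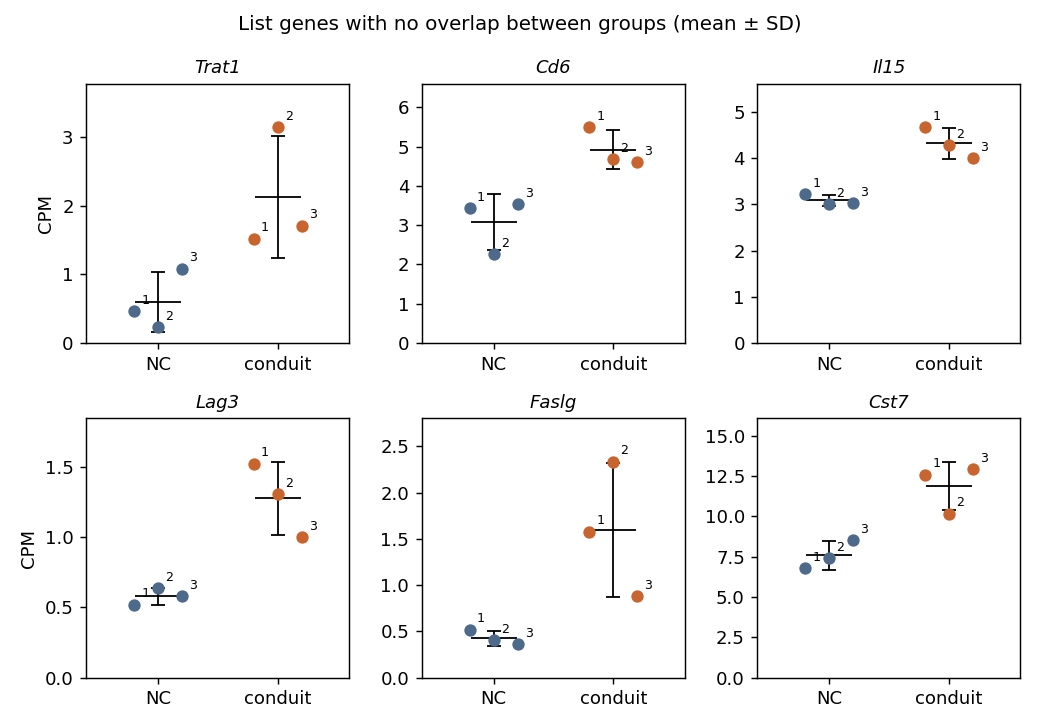
Level (CPM, y axis from 0) of 6 list genes picked because all conduit libraries lie above all NC libraries. Points are libraries numbered by replicate, and the bar is the mean with its SD. Of the 103 tested genes of the 6 lymphocyte lists, 14 had this pattern, against 2.81% of all genes tested. None passed the test over all genes, and levels of Lag3 and Faslg are at or below 2.34 CPM. Trat1, Lag3 and Faslg passed the filter on low counts only through the conduit libraries.

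Among NK cell receptors and adaptors, 10 of 12 tested genes were positive (median 0.30) and 0 were called. In 2 the groups did not overlap, where 2.81% of all genes tested lay above and 2.88% below. Ncr1, an activating receptor of NK cells, was counted 15, 2 and 16 times across the NC libraries and 23, 62 and 20 times across the conduit libraries, with no overlap (1.53 ± 0.83). The NC counts of Ncr1 alone would not have passed the filter on low counts, so its lack of overlap is no support. Fcgr3a, an Fc receptor of NK cells and macrophages, stood at 0.75 ± 0.33, and Klrd1, a partner chain of NK lectin receptors, at 1.17 ± 0.71. With NC 2 and conduit 2 left out, Ncr1 and Klrd1 stood at 0.39 and 0.02.

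Among cytokines, chemokines and their receptors, 19 of 21 tested genes were positive (median 0.49) and 0 were called. In 2 the groups did not overlap, where 2.81% of all genes tested lay above and 2.88% below. Il15, a survival factor of CD8 T and NK cells, stood at 3.22, 3.01 and 3.04 CPM across NC 1 to NC 3 against 4.68, 4.29 and 4.01 CPM across conduit 1 to conduit 3 (0.49 ± 0.22). Il18rap, a subunit of the interleukin-18 receptor, stood at 0.67 ± 0.30 without overlap. Cxcr3, a chemokine receptor of effector T cells, stood at 1.14 ± 0.51 with overlap. Ifng, the main cytokine product of these cells, had 0 counts in 5 libraries and 2 in conduit 3. A count of 0 allows a level of up to 0.16 CPM in NC 1 and 0.22 CPM in NC 3 (3 counts, counting error only). Cxcl9, a chemokine induced by interferon-gamma that attracts T cells through Cxcr3, stood at 67.5, 13.9 and 62.0 CPM across NC 1 to NC 3 against 56.0, 81.6 and 23.8 CPM across conduit 1 to conduit 3. It was lowest in NC 2 and highest in conduit 2, as were most members (0.17 ± 0.68).

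Markers of other cell types also varied between the libraries, and their part in the lymphocyte result was not tested. The sum of 10 B and plasma cell genes ran from 13.1 CPM in NC 2 to 63.3 CPM in NC 1, and 3 of 9 tested genes were positive (median -0.27). Its genes with the smallest p stood at 0.30 ± 0.32 for Fcrla, -0.92 ± 1.24 for Cr2 and -0.34 ± 0.54 for Blk. The sum of 13 monocyte and macrophage genes was flatter, 1242 CPM in NC 2 to 2360 CPM in NC 3, with 7 of 13 positive (median 0.03). Besides Ptprc, Itgam stood at 0.64 ± 0.32 and Tyrobp at 0.17 ± 0.19. Neutrophil genes summed to 57.9, 33.8 and 323 CPM in NC and to 186, 345 and 268 CPM with the conduit, with NC 2 lowest and conduit 2 highest, and 6 of 7 tested genes were positive (median 1.04). Csf3r stood at 1.36 ± 0.58, Cxcr2 at 1.04 ± 0.67 and Mpo at -0.96 ± 0.64. Mast cell genes had 2 of 9 positive (median -0.29), with Cma1 at -0.48 ± 0.30, Cpa3 at -0.50 ± 0.39 and Kit at -0.26 ± 0.24. Red cell genes had 2 of 7 positive (median -0.09), with Ahsp and Slc4a1 at -0.35 ± 1.71 and -0.34 ± 1.90. Schwann cell genes had 2 of 9 positive (median -0.13), with S100b, Ngfr and Pmp22 at -0.81 ± 0.49, 0.26 ± 0.91 and -0.36 ± 1.42. No gene of these 6 lists was called.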

How the data were processed

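Messenger RNA was enriched by poly(A) selection and made into libraries with a NEBNext Ultra kit, per the labels' protocols, which does not mark strand. The authors deposited estimated counts (expected counts) per gene, which were rounded to whole numbers. Bowtie2 2.2.8, HISAT2, StringTie 1.3.1 and DESeq2 are named in the submitters' processing notes, with no role for each. Counter, build and annotation: not given in the sources used here. Columns named Con and Gel_HA-Mg were assigned to the NC and GDNF-Gel/HA-Mg groups with their numbers. The Con columns were taken as the NC group, which the design text calls the control. The Gel_HA-Mg columns do not name GDNF and were assigned because no other group of the series holds Gel/HA-Mg, so that they are the GDNF conduit rests on this alone. Reads of overlapping or antisense genes cannot be told apart.

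Genes were kept with filterByExpr (minimum count 10), scaled by TMM and tested with edgeR 4.0.16 in R 4.3.3 (quasi-likelihood, two-sided, group as the only term), with Benjamini-Hochberg adjustment over 13999 genes and calls at 0.05. The SE is the log2 fold change over the root of F. Log2 CPM used a prior count of 2. For symbols shared by several rows, the row with the highest total was taken. The 10 members and the 12 gene lists were chosen with earlier results of these data known. Fas ligand was matched as Faslg after the table was seen. Besides the members, up to 3 genes per list with the smallest unadjusted p were named, and the 5 genes most alike the members. Cxcl9, Ifng and other list genes named outside this rule were chosen after their values were seen. No pair of libraries agreed within sampling noise. Alternatives were RLE and upper quartile scaling, haemoglobin genes left out, DESeq2 1.42.0, limma-voom 3.58.1, other filters, a haemoglobin covariate, a replicate block, and leaving out each library. The script was tested on simulated data. Some list genes that the naming rule picks are not reported here. Promoter windows came from RefSeq (GRCr8). Figures were drawn with matplotlib 3.10.9.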

Additional observations from a re-analysis of the deposited data

How the results depend on the processing

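Across the 16 alternatives no member was called, and edgeR called 0 genes in each run it was used for, while DESeq2 called 11 over all genes. Scaling, filtering and the choice of tool left all 9 members positive. The labels do not say whether libraries with the same replicate number are paired, and the values gave no sign of pairing. Deviations from the group means correlated at 0.10, -0.72 and 0.06 for the same number. No library correlated best with its own number. With 3 libraries per group this cannot decide the question. With the replicate block 0 genes were called, the median of the members was 0.46, and red cell genes moved to a median of 2.43 (Ahsp 2.95, Slc4a1 2.97) and Pmp22 to 1.36. With limma-voom Ahsp, Slc4a1 and Pmp22 stood at 2.84, 2.77 and 0.37. The cause was not tested.

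With the haemoglobin level as a covariate Cd3e, Cd3d, Cd247, Cd8a and Tyrobp turned to -0.18, -0.041, -0.19, -0.0031 and -0.029, Pmp22 to 1.10 and the Schwann cell median to 1.55; the cause was not tested. With NC 2 and conduit 2 both left out, chosen after seeing the data, the log2 ratio of the summed members was -0.22 in place of 0.50. As these were the lowest and highest libraries of that sum, the ratio had to fall. In that setting Cd3e, Cd3d, Cd247, Lck, Cd8a and Prf1 stood at -0.28, -0.31, -0.27, -0.37, -0.38 and -0.55. Adgrg3, Wdr46, Rgs19, Skap2 and Irak4 stood at -0.51, -0.063, -0.12, -0.093 and -0.022, Ngfr at -0.57 and Pmp22 at 2.79. List medians there were -0.062 for the receptor complex, 0.086 for coreceptors and lineage factors, -0.077 for costimulatory receptors, 0.021 for cytotoxic genes, -0.17 for NK receptors, 0.13 for cytokines, -0.86 for B cells, -0.22 for macrophages, 0.36 for neutrophils, -0.65 for mast cells, -0.64 for red cells and 1.26 for Schwann cells. Fewer libraries entered that fit. Lag3, Faslg and Gata3 have no value under the filter of 1 CPM in 3 libraries.

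Leaving out each library in turn gave these ranges of the log2 fold change: Cd3e -0.13 to 0.48, Cd247 -0.053 to 0.96, Lck -0.019 to 0.83, Prf1 -0.18 to 0.73, Blk -0.62 to 0.25, Ahsp -0.92 to 4.94, Slc4a1 -1.44 to 5.54, Ngfr -0.27 to 1.64, Pmp22 -0.88 to 2.26 and Adgrg3 -0.062 to 1.84. List medians ranged from 0.01 to 0.90 for the members, 0.11 to 0.72 for the receptor complex, 0.28 to 0.61 for coreceptors, -0.10 to 0.31 for costimulatory receptors, 0.22 to 0.71 for cytotoxic genes, -0.026 to 0.64 for NK receptors, 0.28 to 0.62 for cytokines, -0.64 to 0.17 for B cells, -0.12 to 0.33 for macrophages, 0.66 to 2.63 for neutrophils, -0.51 to 0.031 for mast cells, -0.61 to 4.23 for red cells and -0.62 to 0.97 for Schwann cells. The summed members ranged from 0.09 to 0.90. At 13 to 311 counts per member and library, differences under about the width of the intervals given were not detectable.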
